A study of Macaca fascicularis with 22 samples.

Results

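The keratins of simple and stratified epithelium were followed here across 22 single-colour arrays of tissues from newborn Cynomolgus macaques (Macaca fascicularis). The members were the array probes that carry one of 10 human RefSeq ids, those of KRT4, KRT5, KRT6A, KRT7, KRT8, KRT13, KRT14, KRT17, KRT18 and KRT19. The id of KRT19 was not among the probes used here. The other 9 genes are 9 of the 19376 accessions on the array and had 10 of its 20217 probes, since KRT6A had 2. All 10 probes passed the filter on low signals. KRT13 (NM_002274, A_01_P010173) and the KRT6A probe A_01_P011646 passed it only through the arrays labelled liver.

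Keratins are the intermediate filament proteins of epithelial cells. Each filament pairs a type I with a type II keratin, and the pair in use marks the kind of epithelium. KRT8 and KRT18 pair in simple epithelia, including hepatocytes, and KRT7 (type II) and KRT19 (type I) join them in ductal epithelia. KRT5 and KRT14 pair in the basal layer of stratified epithelia, KRT4 and KRT13 in the upper layers of internal stratified epithelia, and KRT6A and KRT17 in appendages and in activated or healing epithelium. The umbilical cord is covered by amniotic epithelium, whereas desmin is the main intermediate filament of skeletal muscle fibres. In a RefSeq gene list of this macaque, KRT7, KRT6A, KRT5, KRT4, KRT8 and KRT18 follow each other in this order on one chromosome, and KRT13, KRT19, KRT14 and KRT17 on another.

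The study compared neonates of lower birth weight (LBW, 5th to 25th centile) with neonates of average birth weight (ABW, 50th to 75th centile). All were neonates of one sire, and per the study's methods liver and biceps femoris were taken on postnatal day 5 and the cord after delivery, whereas the sample labels say at birth. There were 4 ABW and 4 LBW arrays labelled skeletal muscle, 4 and 4 labelled umbilical cord, and 3 and 3 labelled liver. The labels do not say which arrays come from the same animal. A level is the log2 of a probe's signal after background subtraction minus the 75th percentile of its array, so that 0 is that percentile. Levels of different probes are not set against each other.

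The labels of liver and cord did not match the markers of these tissues. The mean level of 16 hepatocyte genes ran from 2.12 to 3.39 on the arrays labelled cord, from -7.39 to -6.64 on those labelled liver and from -6.93 to -4.06 on those of muscle. All 16 were lower on the arrays labelled liver than on those labelled cord at an adjusted p under 0.05, as were 35.6% of all probes. Among them were HNF4A, a hepatocyte transcription factor, with a difference of -5.69 ± 0.32 (SE), and CP, the plasma copper carrier ceruloplasmin, with -8.10 ± 0.35. All 7 stromal probes, among them LUM and COL1A1, were higher on the arrays labelled liver, as were 31.3% of all probes. Their mean level ran from 4.92 to 5.56 there, against -1.28 to -0.01 on the arrays labelled cord. These lists were chosen with earlier results of these data known. The 4 striated muscle probes had their mean level between 5.08 and 6.45 on the muscle arrays and at most 0.75 elsewhere. The groups are therefore called labelled liver and labelled cord throughout, and every direction below is that of the labels. The arrays lay on 6 slides, and no slide held both birth weight groups of muscle or of labelled cord. The 2 arrays of slide 6, labelled cord ABW replicates 3 and 4, were scanned apart from the others with another software version, and the net signal of their negative controls was 16.7 and 17.1 against 29.2 to 35.3 elsewhere.

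**Figure D1:**
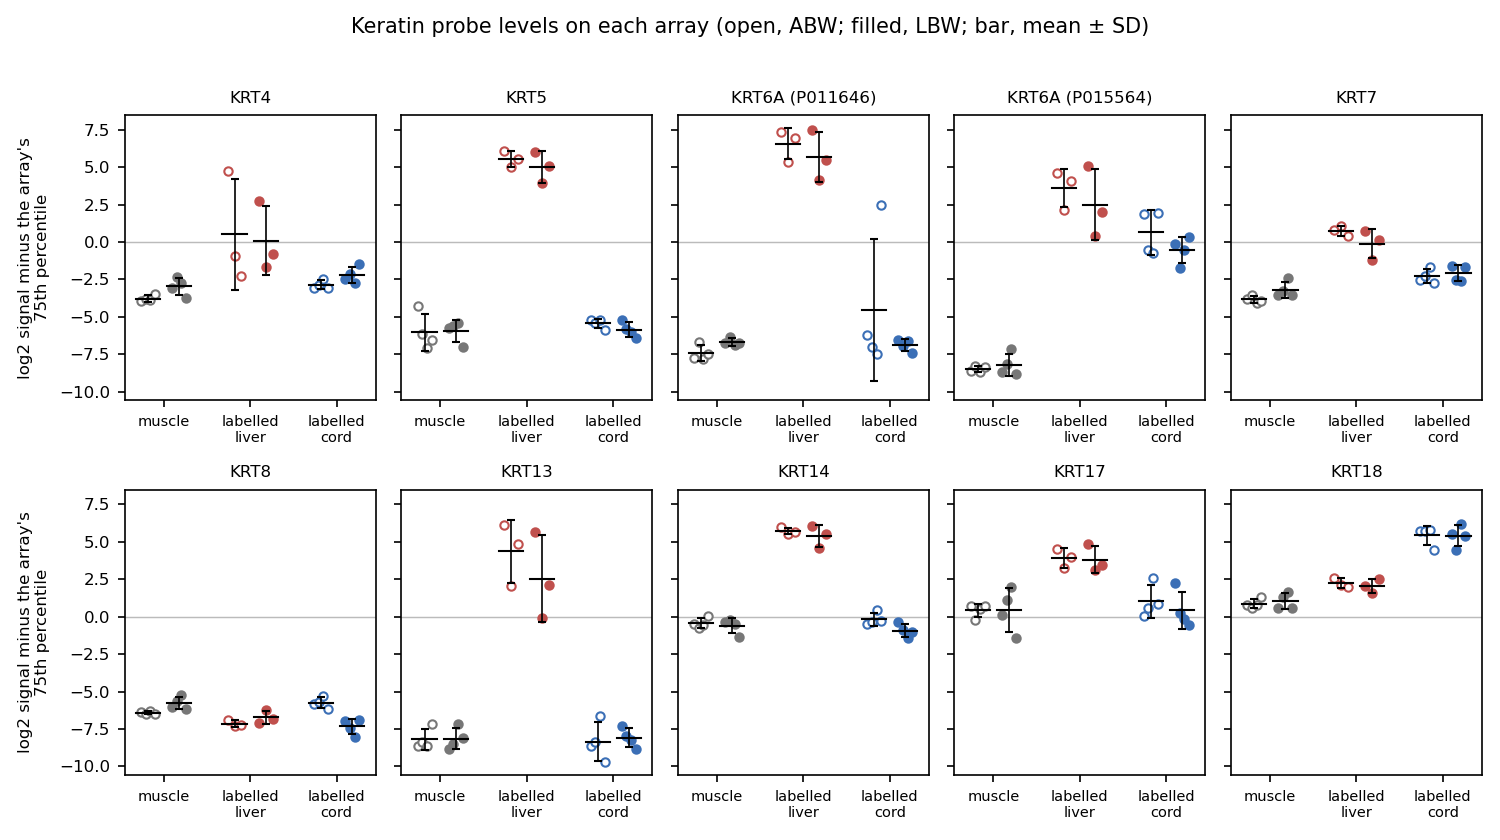
Levels of the 10 keratin probes on each of the 22 arrays, in log2 units relative to the array's 75th percentile, by tissue label. Open points are ABW and filled points LBW arrays, and bars give the mean and SD of each group. KRT5, KRT13, KRT14 and the KRT6A probe A_01_P011646 stood far higher on the arrays labelled liver, KRT18 stood highest on those labelled cord, and KRT8 was dim under all 3 labels.

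The arrays labelled liver carried the keratins of stratified epithelium, and those labelled cord carried KRT18. Between these labels 9 of the 10 keratin probes differed, 8 being higher and KRT18 lower in labelled liver, at an adjusted p under 0.05 in limma. Of all 17117 probes tested, 66.9% passed the same threshold, 31.3% higher and 35.6% lower. The median difference of the keratin probes was 3.07 against -0.13 over all probes. Between these labels 6 keratin probes did not overlap in the higher direction and 1 in the lower, as was so for 19.3% and 18.7% of all probes. In these bulk samples, fewer cells of a type and less RNA per cell cannot be told apart. With muscle set against the arrays labelled liver all 10 probes passed, 9 of them lower and KRT8 higher in muscle, where 65.3% of all probes did, 28.1% lower and 37.1% higher. There 8 keratin probes did not overlap in the lower direction, against 19.1% of all probes. With muscle set against the arrays labelled cord 4 of 10 passed, a smaller share than the 64.9% over all probes (29.1% lower and 35.8% higher), and 2 did not overlap in the lower direction, against 14.4%. These 3 comparisons share arrays. KRT13 and the KRT6A probe A_01_P011646 are in the counts of probes higher in labelled liver, against labelled cord and against muscle. The filter admitted both only through the arrays labelled liver, so their direction there is not independent support.

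KRT5 (NM_000424, A_01_P012047), the type II keratin of basal cells, was at 6.09, 5.02 and 5.53 on the ABW arrays labelled liver and at 6.03, 3.94 and 5.07 on the LBW arrays. On the arrays labelled cord it lay between -6.40 and -5.19 (median -5.62) and in muscle between -7.11 and -4.30 (median -5.95). Every array labelled liver was above every other array, with no overlap. The difference between labelled liver and labelled cord was 10.92 ± 0.40 (SE, adjusted p = 3.66e-15). The difference between muscle and labelled cord was -0.33, with a 95% interval from -1.10 to 0.43 (adjusted p = 0.440). The probe was well above background on 5 of the 8 muscle arrays and on all arrays of the other labels.

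KRT14 (NM_000526, A_01_P019361), the type I partner of KRT5, was at 5.99, 5.55 and 5.64 on the ABW arrays labelled liver and at 6.04, 4.61 and 5.52 on the LBW arrays. Its levels lay between -1.41 and 0.48 (median -0.44) on the arrays labelled cord and between -1.36 and 0.02 (median -0.48) in muscle. Here too the arrays labelled liver were apart from all others. They were higher by 6.10 ± 0.25 than labelled cord, a 68.7-fold difference (adjusted p = 1.89e-14). The difference between muscle and labelled cord was 0.03, with an interval from -0.45 to 0.51 (adjusted p = 0.916). The probe was well above background on all 22 arrays.

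KRT13, the type I keratin of the upper layers of internal stratified epithelia, was at 6.15, 2.07 and 4.88 on the ABW arrays labelled liver and at 5.63, -0.09 and 2.11 on the LBW arrays. It was not well above background on any muscle array, and 1 of the 8 arrays labelled cord, where its values lay between -9.71 and -6.61, measured it. The measured values of labelled liver and labelled cord were 11.67 apart, but 7 of the 8 values on the cord side were not above background. With every dim signal raised to the lowest one that counted as well above background on its array, the difference was 9.88. Most cord values in that fit are such limits and not measurements, so its spread is not that of KRT13. Against muscle the arrays labelled liver were at least 786-fold higher, a bound set by the lowest signals that counted as well above background on the muscle arrays. The bound itself was not tested.

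KRT4 (NM_002272, A_01_P019149), the type II partner of KRT13, was at 4.73, -0.92 and -2.27 on the ABW arrays labelled liver and at 2.73, -1.65 and -0.79 on the LBW arrays. On the arrays labelled cord it lay between -3.06 and -1.50, which overlaps the lower arrays labelled liver, and in muscle between -3.96 and -2.37. The difference between labelled liver and labelled cord was 2.84 ± 0.78 (adjusted p = 0.00335), and it was 1.74 ± 0.37 within slide 4, the only slide with arrays of both labels (adjusted p = 0.0162). Slide 4 holds LBW arrays of the one label and ABW arrays of the other, so birth weight and label cannot be told apart there.

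The 2 probes of KRT6A (NM_005554), a type II keratin of activated epithelium, did not give the same picture. A_01_P011646 was at 7.34, 5.38 and 6.97 on the ABW arrays labelled liver and at 7.46, 4.12 and 5.47 on the LBW arrays. On the arrays labelled cord it lay between -7.46 and -6.19 except in ABW replicate 4, at 2.49, and it was well above background on 2 of the 8. In muscle no array measured it, and the arrays labelled liver were at least 4989-fold higher, a bound set as for KRT13. A_01_P015564 was at 4.60, 2.14 and 4.07 on the ABW arrays labelled liver and at 5.07, 0.37 and 2.02 on the LBW arrays. It was well above background on all 8 arrays labelled cord, between -1.73 and 1.95, and on no muscle array.

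Between labelled liver and labelled cord the measured values of the first probe were 11.84 apart, with 6 of the 8 values on the cord side not above background. With dim signals raised to the background limit they were 11.21 apart. Most cord values in that fit are such limits, so its spread is not that of the probe. The second probe differed by 2.99 ± 0.62 (adjusted p = 0.000287), but within slide 4 by 0.53 ± 0.96 (adjusted p = 0.681), so that it no longer passed there. By the second probe the arrays labelled cord were at least 74.4-fold higher than muscle, again a bound set by the background limits of the muscle arrays. The first probe differed between muscle and labelled cord by -1.34, with an interval from -3.40 to 0.73 (adjusted p = 0.247). Most of its values under these labels were not above background. KRT6A has near-identical paralogues, and no probe sequence was used here, so which transcripts each probe detects is uncertain. A probe of another id on the list of other keratins, NM_005555, was higher on the arrays labelled liver by 5.49 ± 0.51 (adjusted p = 7.48e-09).

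**Figure D2:**
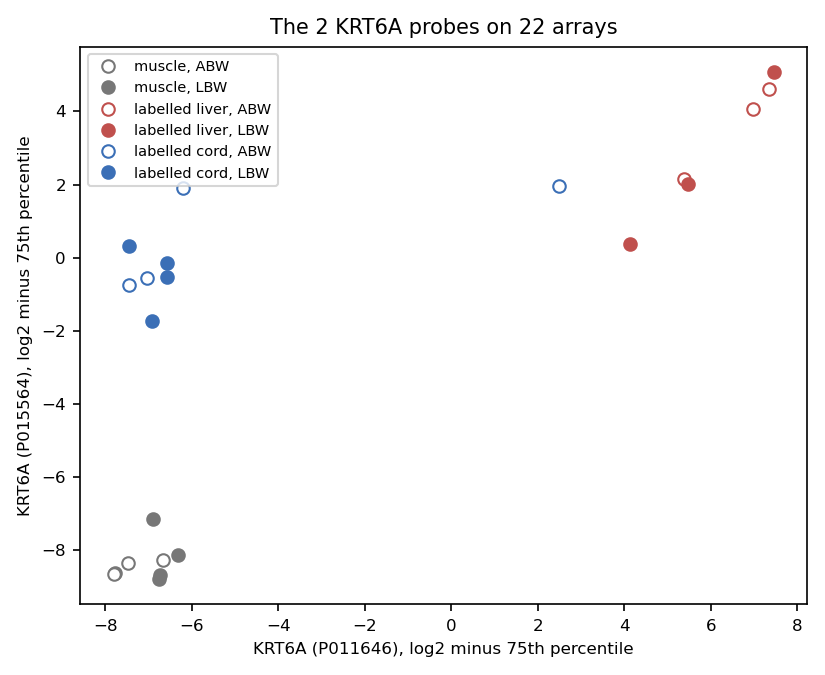
The 2 KRT6A probes plotted against each other, each point an array, in log2 units relative to the array's 75th percentile. Both were high on the 6 arrays labelled liver and below background in muscle, but on the arrays labelled cord A_01_P015564 lay between -1.73 and 1.95 while A_01_P011646 lay below -6 on 7 of 8.

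KRT17 (NM_000422, A_01_P004863), a type I keratin of appendages and activated epithelium, was at 4.53, 3.25 and 3.98 on the ABW arrays labelled liver and at 4.83, 3.14 and 3.48 on the LBW arrays. It lay between -0.58 and 2.56 on the arrays labelled cord and between -1.43 and 1.98 in muscle, both below all arrays labelled liver. The difference between labelled liver and labelled cord was 3.14 ± 0.52 (adjusted p = 2.28e-05). Muscle and labelled cord differed by -0.29, with an interval from -1.30 to 0.72 (adjusted p = 0.617). KRT17 and KRT14 are close paralogues, and signal of one at the probe of the other cannot be told apart here.

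KRT7 (NM_005556, A_01_P002422), the type II keratin of ductal and other simple epithelia, was at 0.78, 1.06 and 0.38 on the ABW arrays labelled liver and at 0.74, -1.18 and 0.11 on the LBW arrays. It lay between -2.74 and -1.60 on the arrays labelled cord and between -4.06 and -2.42 in muscle. The arrays labelled liver were above all arrays labelled cord, by 2.51 ± 0.28 (adjusted p = 1.25e-07). The arrays labelled cord were in turn above muscle by 1.31 ± 0.26 (adjusted p = 0.000173), although LBW replicate 3 of muscle lay within their range. KRT7 thus had the order labelled liver, labelled cord, muscle, with each step past the threshold.

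KRT18 (NM_000224, A_01_P007865), the type I keratin of simple epithelia, ran the other way. It was at 5.75, 5.72, 5.79 and 4.49 on the ABW arrays labelled cord and at 5.55, 4.48, 6.17 and 5.38 on the LBW arrays. It lay between 1.59 and 2.60 on the arrays labelled liver and between 0.55 and 1.67 in muscle. Every array labelled cord was above every other array. The arrays labelled liver were 9.71-fold lower, a difference of -3.28 ± 0.28 (adjusted p = 1.71e-09). In muscle minus labelled cord it differed by -4.46 ± 0.25 (adjusted p = 3.37e-12), and in muscle minus labelled liver by -1.18 ± 0.28 (adjusted p = 0.000875), with 1 LBW array of muscle inside the range of labelled liver. The 16 hepatocyte genes moved with KRT18, all of them higher on the arrays labelled cord than on the others, and their part in its level was not tested.

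KRT8 (NM_002273, A_01_P019508), the type II partner of KRT18 and its neighbour on the chromosome, did not share its pattern at this probe. The probe was dim under every label, and whether it detects the macaque transcript was not tested. It was well above background on 7 of the 8 muscle arrays, on 4 of the 8 arrays labelled cord and on 1 of the 6 labelled liver. Its levels lay between -6.48 and -5.21 in muscle, between -8.04 and -5.29 on the arrays labelled cord and between -7.30 and -6.25 on those labelled liver. The lowest signal that counted as well above background lay between -8.57 and -5.31 on the 22 arrays, which covers this range. Muscle was above labelled liver by 0.84 ± 0.21 (adjusted p = 0.00142) and above labelled cord by 0.45 ± 0.19 (adjusted p = 0.0475). The first was lost after normexp background correction (adjusted p = 0.0589), quantile normalization (adjusted p = 0.0580) and spike-in scaling (adjusted p = 0.904), and the second turned in sign with spike-in scaling and with a floor on dim signals. Labelled liver and labelled cord differed by -0.40, with an interval from -0.83 to 0.04 (adjusted p = 0.0995), and by -0.73 with a floor on dim signals. With the floor, every LBW value of labelled cord was its array's background limit. The floor results of both comparisons with labelled cord therefore partly measure differences in that limit.

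**Figure D3:**
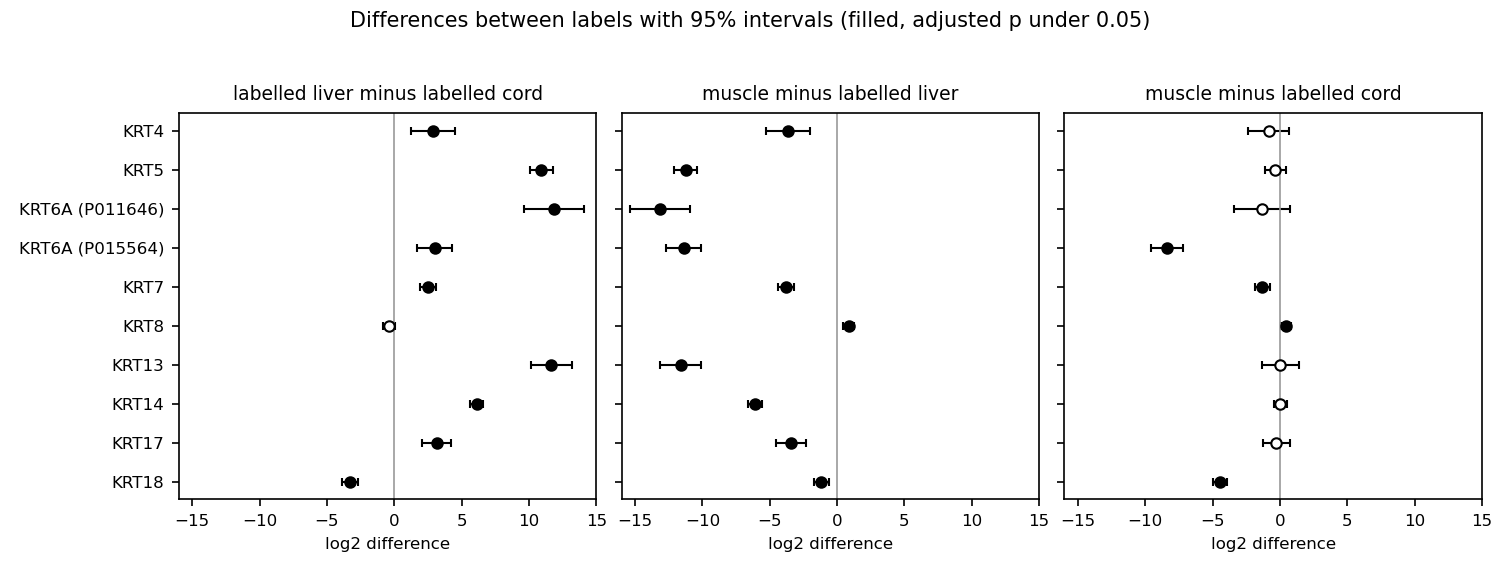
Differences in level of each keratin probe between pairs of labels, in log2 units, with 95% intervals from the fit of all 6 groups. Filled points passed an adjusted p of 0.05. Of the 10 probes 8 lay to the right of 0 and passed in labelled liver minus labelled cord, and KRT18 lay furthest to the left there.

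The genes that build epithelial attachment were read from lists of RefSeq ids, most of which no table used here pairs with a symbol, so they are given by count or by id. Of 7 probes for the hemidesmosome and the epithelial basement membrane, which anchor the KRT5 and KRT14 filaments of basal cells to the matrix, all 7 were higher on the arrays labelled liver than on those labelled cord, as were 31.3% of all probes, with a median difference of 4.72. The largest was NM_000213, at 5.74 ± 0.19 (adjusted p = 1.17e-15). Of 10 probes for epithelial regulators and secreted or cytosolic epithelial proteins 8 were higher and none lower, against 31.3% and 35.6% of all probes, with a median of 3.44. PERP, a desmosomal membrane protein that was among the 2 not called, differed by 0.51 ± 0.49 (adjusted p = 0.371).

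The 14 probes tested for desmosomes and other cell junctions were divided between the labels. Labelled liver was above labelled cord at 7 and below it at 4, where 31.3% and 35.6% of all probes were, with a median difference of 0.64. The largest differences were 9.94 ± 0.41 for NM_000299 (adjusted p = 2.59e-14) and -5.01 ± 0.36 for NM_021101 (adjusted p = 1.77e-10). Muscle was lower than labelled liver at 11 of these 14 and lower than labelled cord at 8, against 28.1% and 29.1% of all probes. Of 9 probes for other keratins 6 passed the filter, of which labelled liver was above labelled cord at 3 and below it at 2, against the same 31.3% and 35.6%. NM_002275 was higher by 11.34 ± 0.37 (adjusted p = 9.54e-16), and muscle differed from labelled cord there by 0.003. For probes of the marker lists the arrays well above background were not counted. The size and SE of a large difference, as for NM_002275 and NM_000299, may therefore rest on dim signals. The hair keratins KRT33A and KRT37 differed by -0.65 ± 0.20 (adjusted p = 0.00740) and 0.21 ± 0.22 (adjusted p = 0.406).

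The probes whose levels ran most like those of each keratin were read from Pearson correlations over the 22 arrays. KRT5 and KRT14 had 0.989 with each other. NM_002275, from the list of other keratins, had 0.990 with KRT5, 0.986 with KRT13 and 0.982 with KRT14, and MMP1, an interstitial collagenase, had 0.985 with KRT14. For KRT18 the closest was NM_201566 at 0.983, and for KRT8 NM_173676 at 0.865. These values describe mainly the distance between the 3 labels, which all arrays of a label share.

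The 6 arrays labelled liver differed among themselves in the keratins of stratified epithelium. The range over these arrays was 128-fold for KRT4, 75.4-fold for KRT13 and 26.0-fold for KRT6A by A_01_P015564. It was 4.46-fold for KRT5, 2.68-fold for KRT14 and 2.01-fold for KRT18. The SD within birth weight groups was 3.10 for KRT4 and 2.52 for KRT13, where the median over all 17117 probes was 0.32 and 0.0526% and 0.175% of probes had a larger one. KRT14, at 0.54, was exceeded by 22.5% of probes, and KRT18, at 0.39, by 38.5%.

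The high arrays were largely shared. ABW replicate 1 was among the top 2 for 9 of the 10 probes and LBW replicate 1 for 7, while LBW replicate 2 was lowest for 8. KRT4 stood out on the first 2 of these, at 4.73 and 2.73, with the other 4 arrays between -2.27 and -0.79. The mean level of the junction list was -0.08 and 0.17 on these 2 arrays and between -1.84 and -0.67 on the other 4. That of the hemidesmosome list was lowest on LBW replicate 2, at 1.39, and reached 2.91 on ABW replicate 1. The stromal list kept within 4.92 to 5.56, and was at 5.12 and 4.92 on these 2 arrays. ABW replicates 1 to 3 and LBW replicate 1 lay on slide 3 and LBW replicates 2 and 3 on slide 4. The part of slide, of the epithelial share of each sample and of the animal in this spread was not tested.

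**Figure D4:**
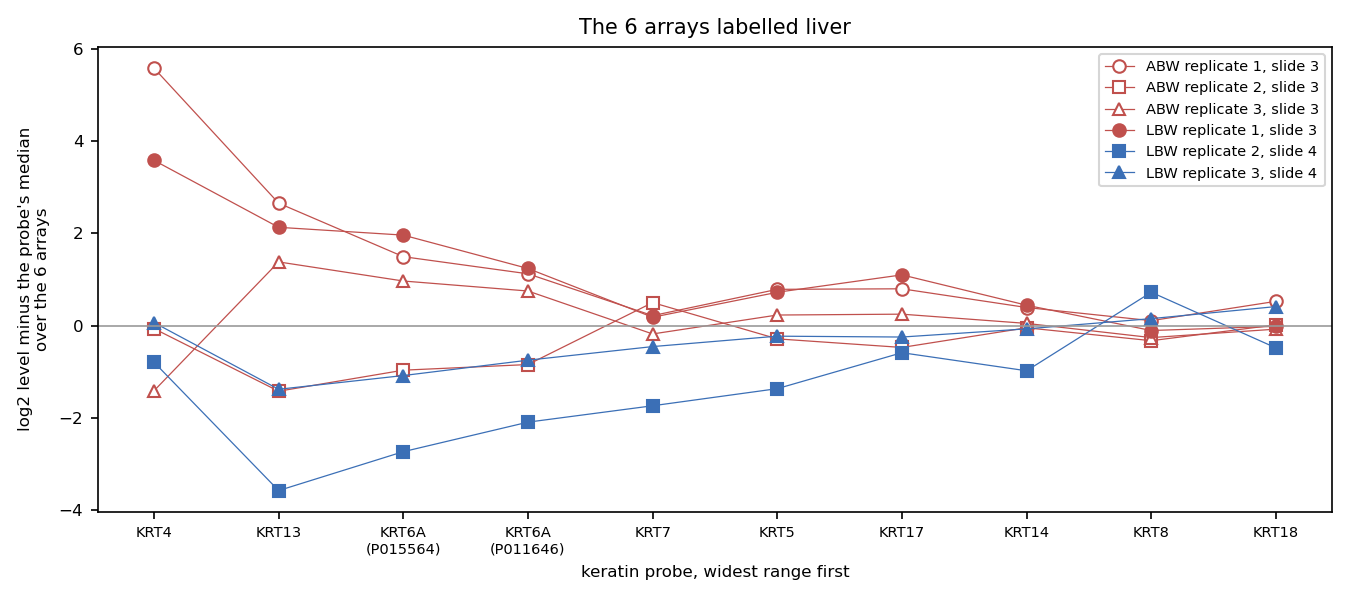
Level of each keratin probe on the 6 arrays labelled liver minus the median of that probe over these arrays, in log2 units, with the probes ordered by range. Open symbols are ABW and filled symbols LBW arrays, red marks slide 3 and blue slide 4. ABW and LBW replicate 1 lie above the median for most probes, and LBW replicate 2 lies lowest for 8 of 10.

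The comparison of LBW with ABW within each label asked whether the keratins follow birth weight. None of the 10 probes passed an adjusted p of 0.05 in limma under any label. Of all probes 0% passed in muscle, 0% in labelled liver and 0.625% in labelled cord. At the study's own threshold, a 1.5-fold difference at an unadjusted p under 0.05, 4 keratin probes passed in muscle, 0 in labelled liver and 2 in labelled cord, KRT8 and KRT14, and the counts were the same without the fold limit. The shares of all probes at this threshold were 12.2%, 4.71% and 8.93%. With the unequal-variance test that the study's methods name the counts were 0, 0 and 1 of 10, and 7.97%, 1.81% and 5.89% of all probes.

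In muscle 9 of 10 probes had the higher mean in LBW, with a median difference of 0.23 where that of all probes was 0.07. The spike-in scaling, which moved the median of all probes to -0.47, left 4 of 10 higher, and with a floor on dim signals the median was 0.02. The direction hung on LBW replicate 3, without which 4 of 10 were higher and the median was -0.05. It was 0.56 without LBW replicate 4 and between 0.36 and 0.44 without LBW replicate 1 or ABW replicate 1 or 4. The stromal list had a median of -0.93 in this comparison, with 0 of 7 probes called and its mean level between 0.51 and 1.49 in LBW against 1.21 and 2.34 in ABW. Its part in the keratin values was not tested. KRT4 was at -3.96, -3.82, -3.84 and -3.48 in ABW and at -3.08, -2.37, -2.73 and -3.71 in LBW. LBW replicate 4 lay inside the ABW range, and the difference was 0.81 ± 0.29 (adjusted p = 0.232). KRT8 was at -6.35, -6.48, -6.30 and -6.48 in ABW and at -6.04, -5.63, -5.21 and -6.16 in LBW. The groups did not overlap, as was so for 8.61% of all probes in this direction, and the difference was 0.64 ± 0.23 (adjusted p = 0.237).

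KRT7 differed by 0.64 ± 0.27 in muscle (adjusted p = 0.322), with LBW replicate 3 at -2.42 and the other LBW arrays between -3.53 and -3.28 against -4.06 to -3.52 in ABW. KRT6A by A_01_P011646, the fourth probe past the unadjusted threshold, was below background on all 8 arrays. LBW replicate 3 had the highest level of 6 of the 10 keratin probes in muscle and the lowest 75th percentile of signal, 359.1 before scaling against 597.5 to 803.0 on the other muscle arrays. KRT5, KRT13, KRT14, KRT17 and KRT18 differed by between -0.15 and 0.17, and KRT6A by A_01_P015564, also below background on all 8 arrays, by 0.29. Slide 1 held every ABW array of muscle and slide 2 every LBW array, so the effects of slide and of birth weight cannot be told apart there.

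On the arrays labelled liver 9 of 10 probes had the lower mean in LBW, with a median of -0.48 against 0.06 over all probes. KRT13 had the largest difference, -1.81, with an interval from -5.68 to 2.05 (adjusted p = 0.929), and KRT4 differed by -0.42, with an interval from -5.16 to 4.33 (adjusted p = 0.995). The basal keratins were measured more tightly. KRT5 differed by -0.53, with an interval from -1.86 to 0.79, and KRT14 by -0.33, with an interval from -1.23 to 0.56. The direction hung on single arrays. Without LBW replicate 2 the median of the 10 probes was 0.02 and 6 had the higher mean in LBW, and within slide 3, where LBW replicate 1 is the only LBW array, 9 of 10 were higher in LBW with a median of 0.69. Without LBW replicate 1 the median was -1.16 and KRT7 and KRT6A by A_01_P015564 passed the unadjusted threshold, at adjusted p of 0.466 and 0.477.

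On the arrays labelled cord 7 of 10 probes had the lower mean in LBW, with a median of -0.51 against -0.01 over all probes. With normexp background correction 5 were lower and 5 higher, with a median of 0.03. The median was -0.22 without ABW replicate 3, -0.25 without LBW replicate 4, -0.81 without LBW replicate 1, -0.30 without both arrays of slide 6 or with a floor on dim signals, and -0.92 with spike-in scaling, which moved that of all probes to -0.42. The mean level of the hepatocyte list, chosen with earlier results of these data known, lay between 2.89 and 3.39 in ABW and between 2.12 and 2.56 in LBW, without overlap. Of its 16 probes 3 were called lower in LBW, where 0.625% of all probes were called in either direction. Some genes of this list, CP among them, are among the top genes that the study gave as lower in LBW cord from these same arrays. Neither this count nor the gap in mean level is therefore independent support. The part of the hepatocyte list in the keratin values was not tested. KRT14 was at -0.49, -0.39, 0.48 and -0.26 in ABW and at -0.34, -0.91, -1.41 and -1.05 in LBW. LBW replicate 1 lay inside the ABW range, and the difference was -0.76 ± 0.34 (adjusted p = 0.556). KRT18, the keratin that set these arrays apart, had a mean of 5.44 ± 0.63 in ABW and of 5.40 ± 0.70 in LBW (SD over 4 arrays each). Its difference was -0.04, with an interval from -0.99 to 0.92 (adjusted p = 0.986). KRT6A by A_01_P011646 differed by -2.33 ± 1.83 (adjusted p = 0.721), with ABW replicate 4 alone high, and KRT4 by 0.63 ± 0.33 (adjusted p = 0.598).

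KRT8 was the only keratin probe whose birth weight groups did not overlap under this label. It was at -5.84, -5.67, -5.29 and -6.14 on the ABW arrays labelled cord and at -6.98, -7.42, -8.04 and -6.88 on the LBW arrays. The groups did not overlap, as was so for 3.21% of all probes in this direction. The difference was -1.60 ± 0.34 (adjusted p = 0.0973), and it was -1.57 with the ABW arrays of slide 4 alone and -1.62 with those of slide 6 alone. All 4 ABW arrays but none of the LBW arrays, which all lie on slide 5, were well above background, so that the measured values set only a bound, at least 1.16-fold higher in ABW. With normexp background correction the difference was 0.54 (adjusted p = 0.435), in the other direction, and with a floor on dim signals it was -0.21 (adjusted p = 0.842). With slide as a random block or with the spread taken from all 6 groups it passed, at adjusted p of 0.0256 and 0.00149. The estimated correlation within slides was -0.118, and a negative one narrows the standard error. No slide held both birth weight groups here, so neither fit adjusts the difference for slide.

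The birth weight difference itself was compared between the labels. KRT8 was the only keratin probe with a birth weight difference that varied between the 3 labels at an adjusted p under 0.05 (adjusted p = 0.00594), where 1.01% of all probes did. Its difference was 0.64 in muscle, 0.42 in labelled liver and -1.60 in labelled cord. The call was absent with normexp background correction, spike-in scaling and a floor on dim signals. The other 9 probes had adjusted p from 0.485 for KRT7 to 0.987 for KRT17 and KRT18.

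**Figure D5:**
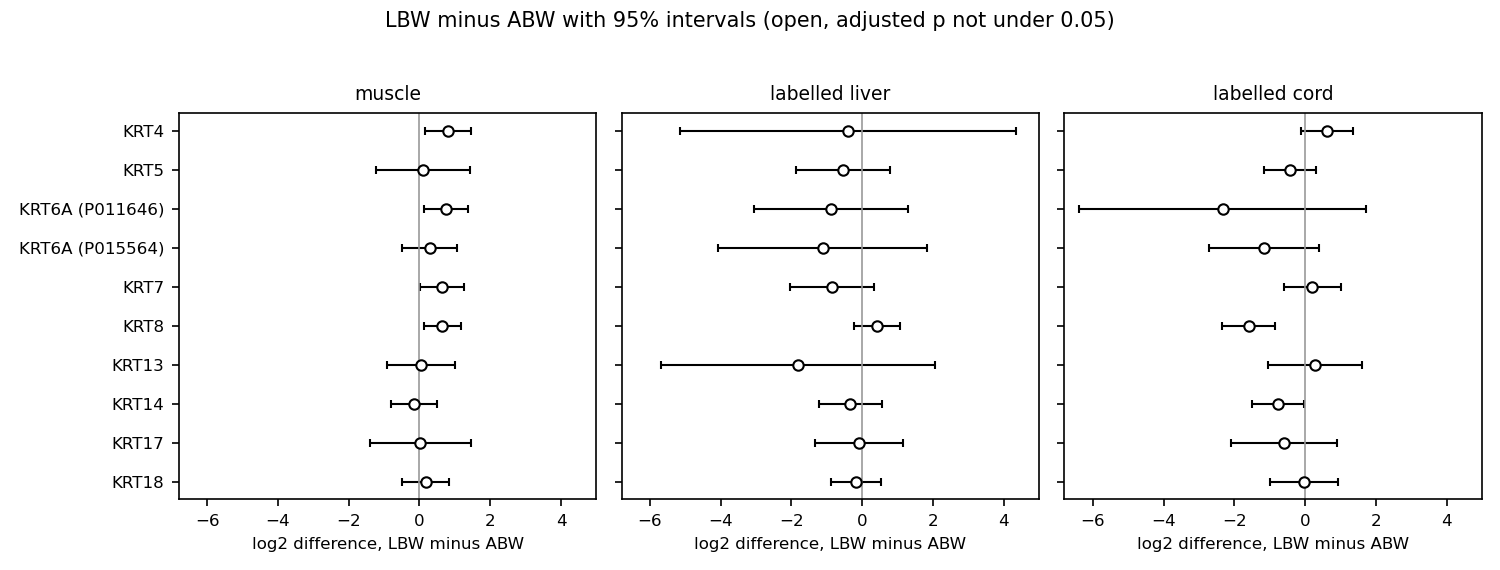
LBW minus ABW for each keratin probe within each label, in log2 units, with 95% intervals from the fit within the label. No probe passed an adjusted p of 0.05. The interval of KRT8 on the arrays labelled cord lay farthest from 0, and the intervals of KRT4 and KRT13 on the arrays labelled liver were the widest there.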

How the data were processed

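Total RNA was labelled with Cy3 and hybridized to 22 Agilent rhesus arrays (20217 probes, 2 spots each). The deposited intensities are, per the file headers, Feature Extraction signals, background-subtracted and detrended within each array and not yet scaled. A second table, deposited by the authors, holds log2 values scaled to the 75th percentile and, by the values, with the median of each probe at 0 in every label. Its correlation with the scanner values had a median of 0.993 to 0.997, and its column medians ran from -0.13 to 0.26. It served as an alternative.

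Spots flagged as outliers were left out, the others averaged, and log2 values reduced by the array's 75th percentile. Probes well above background on 75% of the arrays of any group were tested (17117). limma 3.58.1 in R 4.3.3 gave LBW minus ABW within each label, and label differences and the interaction from a fit of the 6 groups, with Benjamini-Hochberg adjustment over all probes. On simulated data 79 to 136 of 200 probes changed by 2 on the log2 scale were recovered within labels, with 2 to 12 false calls, and 185 between labelled liver and labelled cord, with 16. The simulated arrays had independent noise at each probe's spread in the fit of the 6 groups, and no slide effect. The changed probes were drawn from all tested ones, so these counts do not give what could be detected for the keratins. The number of arrays limits the precision. The study's methods give 4 neonates per group, but the labels tie no array to an animal.

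Symbols of the keratins came with the rule that chose them, others from the study's table of names (1480 of 19376 accessions). The RefSeq gene list, of another build, matched none. All 10 keratins, the marker lists (other keratins, junctions, hemidesmosome, epithelial regulators, hepatocyte, striated muscle, stroma) and the probes of highest correlation are named by rule. The members and lists were chosen with earlier results of these data known. Alternatives covered background correction, scaling, filters, floor, blocks, the spread, the methods' test, the deposited values and leaving out arrays. No sequence of a probe or protein was used here.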

Additional observations from a re-analysis of the deposited data

Results flagged for a closer look

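In 40 groups of 4 arrays, 2 single arrays stood apart by Dixon's ratio, and chance gives about 1 in 20. Both were ABW replicate 4 of the arrays labelled cord, one of the 2 arrays scanned apart. KRT6A by A_01_P011646 was at 2.49 there, with the other 3 arrays between -7.46 and -6.19, and KRT18 was at 4.49, with the others between 5.72 and 5.79. The 75th percentile of signal of this array was 2390 before scaling, against 315 to 1042 on all other arrays. Its KRT18 signal before scaling, 53550, was the highest of the arrays labelled cord, so KRT18 was low there only after scaling. KRT8 was picked out because its birth weight difference varied between the 3 labels (adjusted p = 0.00594).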

How the results depend on the processing

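The counts of keratins that passed between labelled liver and labelled cord (9) and between muscle and labelled liver (10) stayed within 1.5 times under every alternative run. Muscle against labelled cord moved from 4 to 7 with spike-in scaling, which moved the median of all probes there to -1.07. KRT8 turned to -0.74 with spike-in scaling and to -0.13 with a floor on dim signals in that comparison, and lost its call in 16 other alternatives. The 0 calls for LBW against ABW on the arrays labelled cord became 1, KRT8, with the spread of all 6 groups and with slide as a random block. The correlation within slides was negative in the latter (-0.118), so it does not adjust for slide. The 1 call of a birth weight difference that varies between labels became 0 with normexp correction, spike-in scaling and a floor. The cause was not tested. Leaving out both arrays of slide 6, chosen after seeing the data, changed the KRT8 call between muscle and labelled cord (0.46, adjusted p = 0.0638) and no other call.

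Replicate numbers did not pair the samples (correlations of same-numbered arrays from -0.22 to 0.30). With them as a replicate block, KRT8 between muscle and labelled cord stayed at 0.45 and lost its call (adjusted p = 0.0673), so that 3 in place of 4 keratins passed there. The counts of called keratins in the other comparisons kept their values. In muscle the 4 probes at the unadjusted threshold became 0 to 2 with normexp correction, with scaling to the median, to spike-ins or by quantiles, with a floor and with the methods' test, 1 with the spread of all 6 groups, and 1 or 2 without ABW replicate 1 or 3 or LBW replicate 2 or 3. In labelled cord the 2 such probes became 1 without ABW replicate 2 or 4 or LBW replicate 2 or 4, and in labelled liver the 0 became 2 without LBW replicate 1. By unadjusted p alone the count in labelled cord was 1 with normexp correction, spike-in scaling, a floor, no filter and the methods' test. It was also 1 with the ABW arrays of slide 4 alone and without both arrays of slide 6. Quantile normalization and slide as a random block gave 3. In labelled liver that count was 1 with spike-in scaling and with the replicate block. Signal over background limits KRT8 everywhere, and KRT13 and both KRT6A probes in muscle. It also limits KRT13 and the KRT6A probe A_01_P011646 on the arrays labelled cord, and KRT5 on some muscle arrays.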
